A study of Mus musculus with 6 samples.

Results

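The genes described here are 10 genes of de novo fatty acid synthesis, the making of fatty acids from citrate-derived acetyl-CoA: Fasn, Scd1, Scd2, Acly, Acaca, Srebf1, Elovl6, Me1, Thrsp and Fads1. Every probe set that the platform annotation pairs with a single symbol equal to 1 of these names was taken, which gave 25 of the 45037 non-control probe sets and 10 of 18193 singly annotated genes. Srebf1 and Fasn have 1 probe set each and the other 8 genes have several. Lung RNA from adult female mice was hybridised to Affymetrix 3' arrays, 3 per group. The AKR_F1 group held (AKR/J x FVB/NJ)F1 mice and the DBA_F1 group (DBA/2J x FVB/NJ)F1 mice, so each animal of either group carried an FVB/NJ chromosome set beside 1 from AKR/J or DBA/2J. No treatment separated the groups, and the design asks for basal differences between these genotypes. The labels give neither an exact age nor a link from arrays to separate animals, so p-values here measure only the spread between these samples, which may be technical.

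Fatty acid synthesis starts when ATP-citrate lyase (Acly) cuts citrate to acetyl-CoA in the cytosol and acetyl-CoA carboxylase (Acaca) turns that into malonyl-CoA. Fatty acid synthase (Fasn) then builds palmitate with NADPH, part of which comes from malic enzyme (Me1), and elongases and desaturases modify the product. In lung the pathway supplies the palmitate-rich phosphatidylcholine of surfactant in alveolar type 2 cells, and in fat it supplies stored triglyceride, so both cell types express these genes.

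In these lungs the members did not move as a block. Thrsp, Elovl6, Fasn and Acaca had higher DBA_F1 means, led by a single array, DBA_F1 replicate 2. The stearoyl-CoA desaturase Scd2 leaned the other way, and Scd1, Srebf1 and the bright probe set of Fads1 differed by 0.12 log2 or less. Of the 25 probe sets, 22 passed the filter on low values and were tested, and limma called 0 of them at an adjusted p under 0.05, against 2.62% of all 27022 tested probe sets. At an unadjusted p under 0.05 there were 8 of 22, where the share over the array was 18.4%. Several of the 8 were readings of the same RNA, from Scd2 and from Thrsp. By brightest probe set, 3 of the 10 members (Scd2, Thrsp and Elovl6) had such a p, against 19.1% of all tested genes. The groups did not overlap for 5 of 22, against 23.6% of all tested probe sets, with 4 of the 5 higher in DBA_F1. These 4 came from Thrsp and Elovl6 alone. By the brightest tested probe set of each gene, 8 members had a higher mean in DBA_F1 and 2 in AKR_F1. The median difference was -0.22 log2, beside 0.02 over the 13202 tested genes, of which 44.9% had a higher mean in DBA_F1. All differences here are AKR_F1 minus DBA_F1 in log2 units, with the standard error (SE) of the fit.

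**Figure D1:**
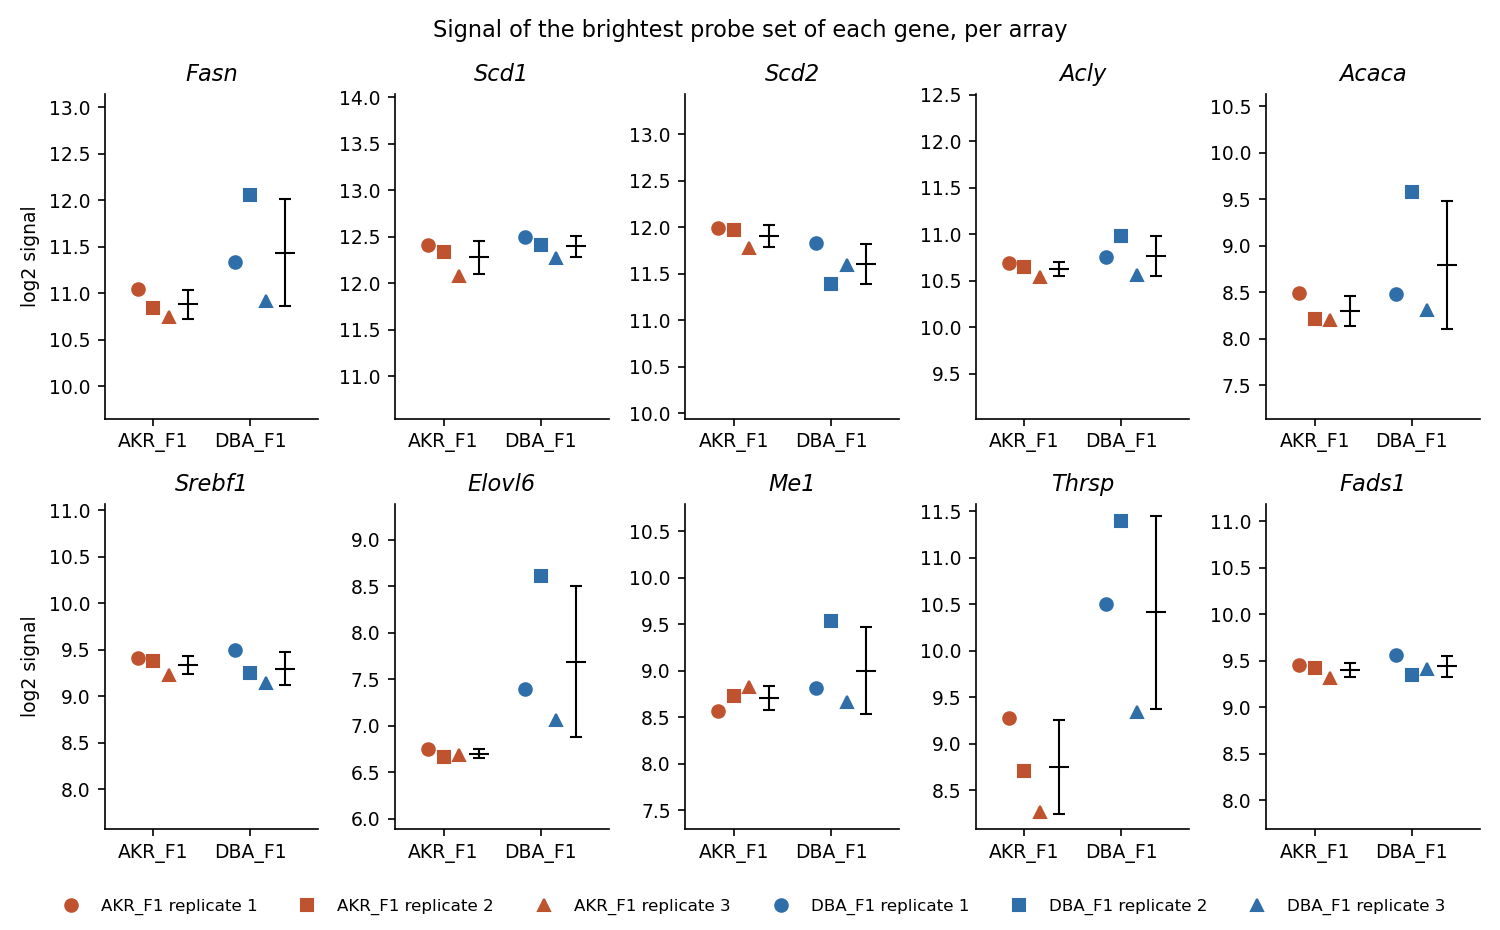
Log2 signal of the brightest probe set of each of the 10 genes (y axis, the same span of 3.5 log2 in each panel) on the AKR_F1 and DBA_F1 arrays, with the marker shape giving the replicate and black bars the group mean ± SD (n = 3). DBA_F1 replicate 2 is the highest array for 6 of the 10 genes, against 13.9% of all tested genes, and the lowest for Scd2.

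Windows before a RefSeq start site are shown for Fasn, Thrsp, Elovl6 and Acaca. These 4 members had the largest differences by brightest probe set, all peaking in DBA_F1 replicate 2, as Acly and Me1 also did. The sequences are the 250 bases before 1 RefSeq start site of each gene in GRCm38.p6, on the gene's strand. CCAAT boxes (CCAAT on either strand) are in capitals. The Fasn and Acaca windows lie inside these genes, which span 120805958 to 120825166 and 84129635 to 84401651. They are therefore not the bases before the outermost start of either gene.
Fasn, chr11:120824548-120824797, minus strand: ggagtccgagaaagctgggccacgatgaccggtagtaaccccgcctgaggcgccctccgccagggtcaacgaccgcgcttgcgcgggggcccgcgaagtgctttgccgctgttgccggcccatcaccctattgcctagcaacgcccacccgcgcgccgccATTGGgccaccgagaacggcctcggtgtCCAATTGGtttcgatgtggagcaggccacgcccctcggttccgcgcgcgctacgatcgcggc
Thrsp, chr7:97417551-97417800, minus strand: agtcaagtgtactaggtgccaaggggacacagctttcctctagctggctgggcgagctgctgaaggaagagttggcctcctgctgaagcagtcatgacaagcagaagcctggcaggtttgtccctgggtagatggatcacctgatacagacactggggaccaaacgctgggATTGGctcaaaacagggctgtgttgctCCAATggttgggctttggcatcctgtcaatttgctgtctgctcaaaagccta
Elovl6, chr3:129532136-129532385, plus strand: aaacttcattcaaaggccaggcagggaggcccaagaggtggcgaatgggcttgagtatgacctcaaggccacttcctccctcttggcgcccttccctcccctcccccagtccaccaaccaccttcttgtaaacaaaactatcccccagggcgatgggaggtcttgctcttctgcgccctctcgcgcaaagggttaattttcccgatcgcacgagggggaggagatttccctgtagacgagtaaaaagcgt
Acaca, chr11:84195188-84195437, plus strand: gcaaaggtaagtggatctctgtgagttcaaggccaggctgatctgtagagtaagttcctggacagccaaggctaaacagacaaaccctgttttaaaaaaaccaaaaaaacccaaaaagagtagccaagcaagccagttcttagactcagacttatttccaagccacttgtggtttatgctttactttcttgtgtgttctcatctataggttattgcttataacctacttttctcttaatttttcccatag
The Fasn window holds 3 matches, at 90, 62 and 59 bases before the start, and the last pair overlap. The Thrsp window holds 2, at 79 and 52 bases before it, and the Elovl6 and Acaca windows hold 0. A CCAAT match occurred in 33.8% of all 32851 promoter windows of this length. RefSeq windows matched 7 of the 10 genes, in 10 windows, since Srebf1 and Me1 have several. CCAAT was found in 5 of the 10 windows, for Fasn, Me1, Srebf1 and Thrsp and not for Acly, Acaca and Elovl6. The Srebf1 windows and 1 of the Me1 windows, the one with its CCAAT match, also lie inside those genes. The GC box GGGCGG was found in 4 of the 10 windows, for Acly, Me1 and Srebf1, and in 32.7% of all windows. The sterol element TCACNCCAC (1.05% of all windows) and the E-box CACGTG (6.02%) were each found in 0 of the 10 member windows, also counting both strands, which says only that these letters are not in these windows. A match is a description of letters and was not tied to binding. Scd1, Scd2 and Fads1 have no window in the table used here.

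Some facts of the whole series bear on every value below. Array medians lay between 5.46 and 5.49, and the 3' minus 5' signal of the Gapdh controls lay between -0.31 and -0.29 on all 6 arrays, with 0.30 to 0.50 for actin. Lung identity was checked with 15 alveolar type 2 markers, whose mean was 11.32 to 11.42 in AKR_F1 and 11.20 to 11.36 in DBA_F1, and with surfactant protein C (Sftpc) at 14.26 to 14.34. AKR_F1 replicates 1 and 2 stood apart from the other 4 arrays in squamous genes, with keratin 4 (Krt4) at 4.56 and 4.88 there against 12.42 to 13.05 elsewhere, and in skeletal muscle genes. Fat markers separated the groups. The mean of 9 white and general adipocyte markers was 7.67, 7.15 and 7.23 on the AKR_F1 arrays and 8.77, 9.25 and 8.53 on the DBA_F1 arrays, in replicate order as in every list of values here. All 9 were higher in DBA_F1 and 8 were called, against 2.48% of all tested genes. The calls fell to 1 (Plin4) without AKR_F1 replicate 2, to 2 without DBA_F1 replicate 1, to 4 without AKR_F1 replicate 1 or DBA_F1 replicate 2 and to 5 without AKR_F1 replicate 3. Lep and Pck1, among the 8, had AKR_F1 means of 4.50 and 4.43, below the filter level of 4.72, and so passed the filter through DBA_F1, where they were high. The mean of 8 brown adipocyte markers was 7.57, 6.95 and 6.76 in AKR_F1 and 8.73, 8.97 and 7.77 in DBA_F1. Of these 8, 6 had higher means in DBA_F1, and Prdm16 (0.10 ± 0.081) and Dio2 (0.07 ± 0.17) leaned the other way. Only Ppara was called (-1.23 ± 0.16, limma adjusted p = 0.014), a call lost without AKR_F1 replicate 1 or 2 or DBA_F1 replicate 2. The uncoupling protein Ucp1, which defines brown fat, was not called (limma adjusted p = 0.111). It had 7.88, 5.18 and 3.82 in AKR_F1, the last below the filter level, and 10.11, 11.25 and 8.29 in DBA_F1. In bulk RNA, fewer cells of a type and less RNA per cell cannot be told apart, and what part these other cells have in the members' values was not tested.

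Acly had 10.70, 10.65 and 10.54 in AKR_F1 and 10.76, 10.99 and 10.57 in DBA_F1 by its brightest probe set. The groups overlapped, since DBA_F1 replicate 3 lay below AKR_F1 replicates 1 and 2. The difference was -0.14 ± 0.10 SE (limma adjusted p = 0.528), and the other tested probe sets gave -0.27 ± 0.11 (adjusted p = 0.252) and -0.14 ± 0.12 (adjusted p = 0.607). On all 3 the highest array was DBA_F1 replicate 2. The 3 remaining Acly probe sets had means of 2.27 to 3.17 over the arrays, below the filter level, and were not tested.

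Acaca, the enzyme that commits carbon to fatty acids, had 8.49, 8.21 and 8.20 in AKR_F1 and 8.48, 9.58 and 8.31 in DBA_F1. The high mean of DBA_F1 came from replicate 2 alone, and its replicates 1 and 3 lay inside the AKR_F1 range. The difference was -0.49 ± 0.31 (adjusted p = 0.447), and it was -0.10 (adjusted p = 0.767) without DBA_F1 replicate 2. The dimmer probe set had the same shape, with 6.71 in DBA_F1 replicate 2 and 5.70 to 5.97 on the other 5 arrays, and a difference of -0.31 ± 0.24 (adjusted p = 0.54).

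Fasn, the synthase itself, had 11.05, 10.84 and 10.74 in AKR_F1 and 11.34, 12.05 and 10.91 in DBA_F1. DBA_F1 replicates 1 and 2 were above every AKR_F1 array, while replicate 3 lay between AKR_F1 replicates 1 and 2. The means were 10.88 ± 0.16 (SD, n = 3) and 11.43 ± 0.58, and the difference of -0.56 ± 0.26 (1.47-fold higher in DBA_F1) had an adjusted p of 0.316. The 95% interval of the fit, not adjusted for the number of probe sets, ran from -1.17 to 0.06. Among the DBA_F1 arrays Fasn spanned 1.14 log2, more than the difference between the groups. Without DBA_F1 replicate 2 the difference was -0.25 (adjusted p = 0.541), and without DBA_F1 replicate 3 it was -0.82 (adjusted p = 0.128).

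Me1 had 8.56, 8.73 and 8.83 in AKR_F1 and 8.82, 9.53 and 8.66 in DBA_F1. DBA_F1 replicate 2 was again the highest, but the other DBA_F1 arrays lay within the AKR_F1 range. The differences by its 2 probe sets were -0.29 ± 0.21 (adjusted p = 0.517) and -0.09 ± 0.18 (adjusted p = 0.823), and the brighter gave -0.03 without DBA_F1 replicate 2. Within AKR_F1 the highest array was replicate 3 for Me1 by both probe sets, and replicate 1 for Fasn, Acaca, Acly, Elovl6 and Thrsp by their brightest probe sets.

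Elovl6, the elongase that takes palmitate to stearate, had 6.75, 6.66 and 6.68 in AKR_F1 and 7.40, 8.61 and 7.06 in DBA_F1. Every DBA_F1 array was above every AKR_F1 array. The means were 6.70 ± 0.04 (SD, n = 3) and 7.69 ± 0.81, so that nearly all of the spread lay in DBA_F1. The difference was -0.99 ± 0.36 (1.98-fold higher in DBA_F1, adjusted p = 0.212), and -0.53 (adjusted p = 0.141) without DBA_F1 replicate 2. The second probe set had 6.92 in that replicate against 4.94 to 5.53 elsewhere, with overlapping groups and a difference of -0.66 ± 0.44. The third, dimmest one differed by -0.10 ± 0.09.

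Scd1 and Scd2 both put the double bond into stearate and palmitate. On the chromosome 19 gene order of the RefSeq table only Mir5114 and Scd4 lie between them. Scd1 had 12.42, 12.34 and 12.08 in AKR_F1 and 12.50, 12.42 and 12.27 in DBA_F1, with overlapping groups. The difference was -0.12 ± 0.10 (adjusted p = 0.571), with an unadjusted 95% interval of -0.35 to 0.11. Its second probe set gave -0.15 ± 0.18 (adjusted p = 0.705). Unlike Fasn and Elovl6, Scd1 had no peak in DBA_F1 replicate 2.

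Scd2 had 11.99, 11.97 and 11.77 in AKR_F1 and 11.83, 11.39 and 11.59 in DBA_F1. DBA_F1 replicate 2, the peak of Fasn, was here the lowest array, and DBA_F1 replicate 1 lay above AKR_F1 replicate 3, so the groups overlapped. The difference was 0.31 ± 0.11 (1.24-fold higher in AKR_F1, adjusted p = 0.221, unadjusted 95% interval 0.04 to 0.57). The other 2 probe sets gave nearly the same, 0.33 ± 0.13 and 0.31 ± 0.13 (adjusted p = 0.238 and 0.259), which are readings of the same RNA and not replicates. Without DBA_F1 replicate 2 the brightest probe set differed by 0.20 (adjusted p = 0.471).

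The desaturases could be compared within each array, where the log2 signal of Scd2 minus that of Scd1 was -0.43, -0.37 and -0.31 in AKR_F1 and -0.67, -1.03 and -0.68 in DBA_F1. The values of the groups did not overlap. Their means differed by 0.42, with an exact two-sided permutation p of 0.1, the smallest that 3 against 3 arrays allow. Fasn minus Scd2 was -0.94, -1.13 and -1.03 in AKR_F1 and -0.49, 0.66 and -0.68 in DBA_F1, again without overlap (exact permutation p = 0.1). Fasn minus Scd1 overlapped, with a difference of -0.44 (exact permutation p = 0.2). The levels of these ratios depend on the probes, so only their change between arrays can be read, and these pairs were chosen after their values were seen, like the 2 others of the same kind given below for Thrsp and Fads1. Adjusted by the Benjamini-Hochberg method over the 5 ratios, the p-values are 0.125 for the 4 at 0.1 and 0.2 for the other.

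Fads1, the delta-5 desaturase of polyunsaturated fatty acids, gave different readings by its 2 probe sets. The bright one had 9.46, 9.42 and 9.31 in AKR_F1 and 9.56, 9.34 and 9.41 in DBA_F1, a difference of -0.04 ± 0.07 (adjusted p = 0.787). The dim one had 5.80, 5.82 and 5.50 in AKR_F1 and 4.75, 5.26 and 4.66 in DBA_F1, with every AKR_F1 array above every DBA_F1 array. It differed by 0.82 ± 0.17 (1.76-fold, adjusted p = 0.065), the lowest adjusted p among the members, and DBA_F1 replicates 1 and 3 were near or below the filter level. It was called with robust eBayes (adjusted p = 0.0486), with the replicate number as a block (0.0404), without AKR_F1 replicate 3 (0.0441) and without DBA_F1 replicate 2 (0.038), and not under the 10 other settings tried, where the highest was 0.574. Within arrays the dim minus the bright signal differed by 0.86 between the groups (exact permutation p = 0.1). What RNA the dim probe set reads was not examined.

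Srebf1 encodes SREBP-1, the transcription factor that drives most of the genes above. It had 9.41, 9.37 and 9.23 in AKR_F1 and 9.50, 9.25 and 9.14 in DBA_F1, with full overlap and a difference of 0.04 ± 0.10 (adjusted p = 0.867, unadjusted 95% interval -0.19 to 0.27). DBA_F1 replicate 2 minus the AKR_F1 mean was -0.09 for Srebf1 and 1.17 for Fasn. These are RNA signals, and what part SREBP-1 has in the Fasn values was not tested. The sign of the Srebf1 difference turned without DBA_F1 replicate 3.

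Thrsp (Spot 14), a thyroid hormone responsive protein of lipogenic tissues, had the largest differences among the members. Its brightest probe set had 9.27, 8.71 and 8.26 in AKR_F1 and 10.51, 11.40 and 9.34 in DBA_F1. The groups did not overlap, but DBA_F1 replicate 3 and AKR_F1 replicate 1 were close together and the DBA_F1 arrays spanned 2.06. The means were 8.75 ± 0.51 (SD, n = 3) and 10.41 ± 1.04, and the difference was -1.67 ± 0.50 (3.17-fold higher in DBA_F1, adjusted p = 0.151). The second probe set gave -1.69 ± 0.50 (adjusted p = 0.146), and the third, with a mean of 5.73, gave -0.13 ± 0.08 (adjusted p = 0.398). Without DBA_F1 replicate 2 the difference was -1.17 (adjusted p = 0.333). Both bright probe sets were called when DBA_F1 replicate 3 was left out, with -2.20 (adjusted p = 0.0407) for the brightest. Over all 16 alternatives its adjusted p ran from 0.0407 to 0.476 and the sign was kept.

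Mid1ip1, the paralogue of Thrsp that binds acetyl-CoA carboxylase, had the opposite order of means. It had 11.59, 11.56 and 11.35 in AKR_F1 and 11.46, 11.17 and 11.16 in DBA_F1, a difference of 0.23 ± 0.10 (adjusted p = 0.273). Thrsp minus Mid1ip1 was -2.32, -2.85 and -3.09 in AKR_F1 and -0.96, 0.23 and -1.82 in DBA_F1 (difference -1.90, exact permutation p = 0.1).

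**Figure D2:**
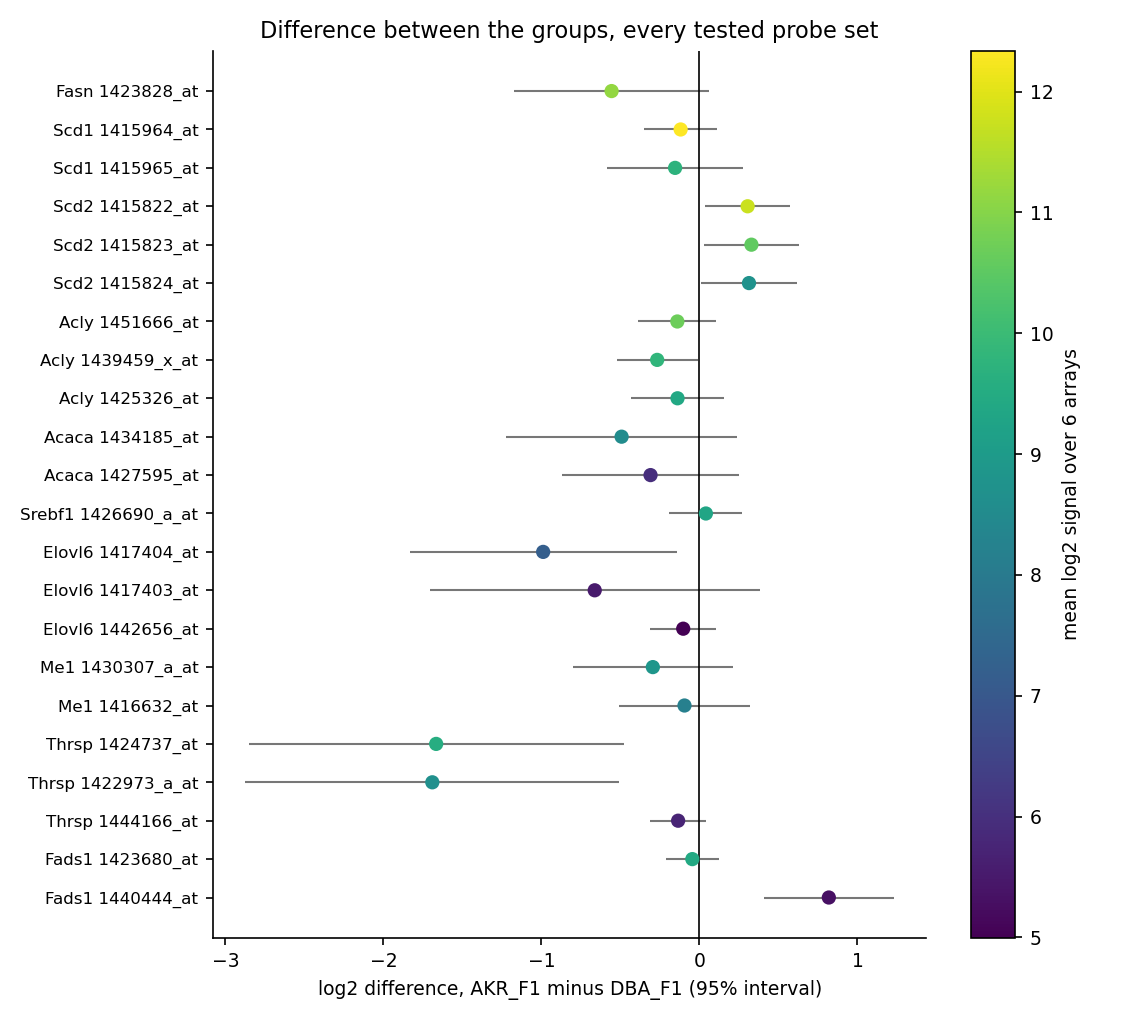
Log2 difference, AKR_F1 minus DBA_F1 (x axis), for each of the 22 tested probe sets, with the unadjusted 95% interval of the limma fit and the mean signal as colour. The widest intervals belong to Thrsp, Elovl6 and Acaca, and the 3 Scd2 probe sets lie together between 0.31 and 0.33.

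The order of the 6 arrays was set beside that of the marker lists. From high to low, both bright Thrsp probe sets ran DBA_F1 replicates 2, 1 and 3, and after them the AKR_F1 arrays in replicate order. This is the order of the brown adipocyte mean, and 0.5% of tested genes had it. Elovl6 by its brightest probe set had the order of the white adipocyte mean, which differs only in the last places (0.356% of tested genes). Fasn had the brown adipocyte order except that AKR_F1 replicate 1 lay above DBA_F1 replicate 3. Scd2 by 2 of its 3 probe sets ran AKR_F1 replicates 1 and 2, DBA_F1 replicate 1, AKR_F1 replicate 3 and DBA_F1 replicates 3 and 2, which is the order of the type 2 marker mean (0.727% of tested genes). These are descriptions over 6 arrays, in which the markers and members of an array come from the same RNA. What part fat, type 2 or squamous cells have in the members' values was not tested. By its brightest probe set, none of the 10 genes had the exact order of the squamous mean. Only 0.386% of tested genes had that order, so its absence from 10 genes says nothing about squamous cells. The squamous-positive AKR_F1 replicate 3 was the lowest of the 6 arrays for Fasn, Scd1, Acly, Acaca, Thrsp and the bright probe set of Fads1. Me1 came nearest to the squamous order, with DBA_F1 replicate 2, AKR_F1 replicate 3 and DBA_F1 replicate 1 as its highest arrays.

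With the 2 AKR_F1 arrays that lack squamous and muscle signal left out, so that AKR_F1 replicate 3 alone stood against the DBA_F1 arrays, the brightest probe sets differed by -2.15 for Thrsp, -1.005 for Elovl6, -0.69 for Fasn and -0.59 for Acaca. They differed by -0.32 for Scd1, -0.22 for Acly, -0.17 for Me1, -0.13 for Fads1, -0.07 for Srebf1 and 0.17 for Scd2. The directions were those of the full comparison except for Srebf1, and with 1 array in AKR_F1 the spread came from the DBA_F1 arrays alone, so calls are not read from this comparison. The dim Fads1 probe set differed by 0.61.

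**Figure D3:**
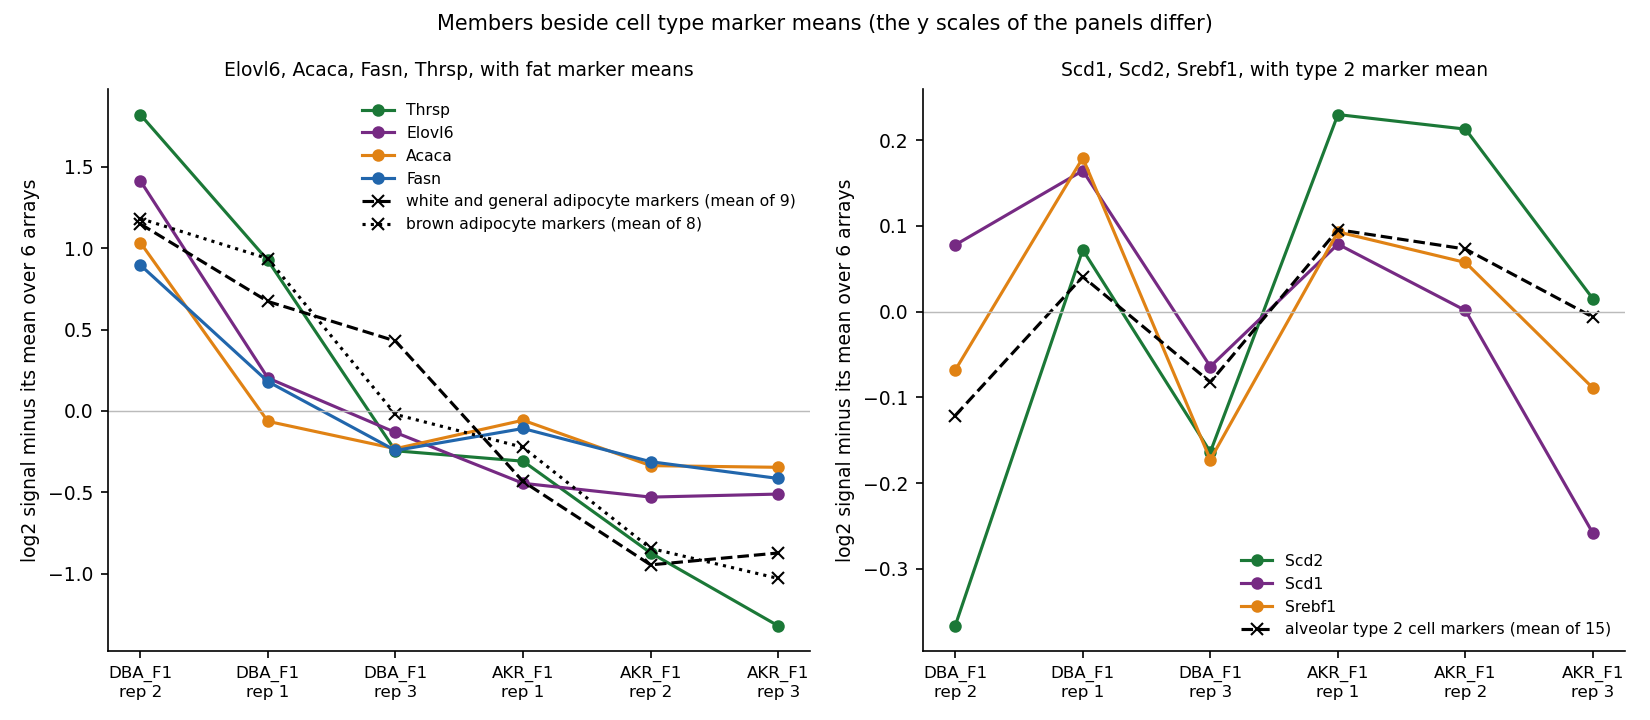
Log2 signal minus its own mean over the 6 arrays (y axis), array by array, for Thrsp, Elovl6, Acaca and Fasn with the white and brown adipocyte marker means (left) and for Scd2, Scd1 and Srebf1 with the alveolar type 2 marker mean (right). Lines only join values of 1 gene or list, and the panels have different y scales. Scd2 and the type 2 mean share 1 order of arrays.

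For the 3 members whose brightest probe set had an SD of at least 0.5 over the 6 arrays, the genes of most similar pattern were taken by Pearson correlation over those arrays, among 13202 genes and with no test. For Thrsp they were Nrg4 (r = 0.996), the acyltransferase Agpat2 (0.992) and Col2a1 (0.991). For Elovl6 they were the coactivator Ppargc1b (0.996), Aifm2 (0.996) and C1qtnf12 (0.991). For Acaca they were Hsd17b12, the ketoreductase of the elongation cycle (0.994), Isl2 (0.993) and Dtx1 (0.987). These 3 were highest in DBA_F1 replicate 2, as Acaca was, so that 1 array largely sets these r values. Isl2 had 5.25 there and 4.86 to 4.94 elsewhere, near the filter level, and Dtx1 6.89 and 6.71 to 6.77.

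The other genes of the pathway were examined in 9 lists, of which 122 of 139 genes were tested. Of these 122, limma called 6, with 4 favouring AKR_F1 and 2 favouring DBA_F1, against 2.48% of all tested genes. At an unadjusted p under 0.05 there were 43, against 19.1% of all tested genes. In these lists 36 genes had groups that did not overlap, against 24.2% of all tested genes. Left out in turn, AKR_F1 replicates 1 and 2 and DBA_F1 replicate 2 brought the 6 called genes to 2, 1 and 3, and without DBA_F1 replicate 3 there were 25.

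The list on the supply of citrate, acetyl-CoA and malonyl-CoA held 14 genes, 9 enzymes and carriers and 5 kinase genes of the LKB1 and AMPK pathway, which regulates these steps. Over the 14, 12 had higher means in DBA_F1, with a median of -0.25. Split after the values were seen, the 9 enzymes and carriers all had higher means in DBA_F1 (median -0.29), and the 5 kinase genes differed by -0.11 to 0.05. Malonyl-CoA decarboxylase (Mlycd), which removes the product of Acaca, was higher in DBA_F1, with 7.43, 7.39 and 7.50 in AKR_F1 and 8.29, 8.39 and 8.35 in DBA_F1 (-0.90 ± 0.057, adjusted p = 0.000685). It was called in all 6 fits that left out 1 array, and had an adjusted p of 0.0502 with AKR_F1 replicate 3 alone. It had no peak in DBA_F1 replicate 2 of the kind seen in Acaca.

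Of 9 genes that supply NADPH, 7 had higher means in DBA_F1 (median -0.09). Nnt, the mitochondrial transhydrogenase, was called higher in AKR_F1 (0.35 ± 0.047, adjusted p = 0.0147), a call lost without either AKR_F1 replicate 1 or 2 or DBA_F1 replicate 2 (highest adjusted p 0.0885) and with the replicate block (0.0522). Of 14 other elongation and desaturation genes, 7 leaned each way (median -0.01), and 6 had an unadjusted p under 0.05. The largest differences were those of the elongases Elovl3 (-1.40 ± 0.59, adjusted p = 0.269), Elovl4 (-1.27 ± 0.53, adjusted p = 0.27) and Elovl7 (-0.56 ± 0.19, adjusted p = 0.189), all with overlapping groups. Elovl3 and Elovl4 had AKR_F1 means below the filter level, and Elovl4 and Elovl7 were called without AKR_F1 replicate 3. Elovl4 had 4.23, 3.68 and 5.88 in AKR_F1 and 5.75, 6.32 and 5.53 in DBA_F1. Elovl7 had 5.55, 5.60 and 6.25 in AKR_F1 and 6.23, 6.52 and 6.34 in DBA_F1. For both, AKR_F1 replicate 3 lay within the DBA_F1 range and AKR_F1 replicates 1 and 2 below it, the split seen in the squamous genes. What part squamous cells have in these values was not tested. The dehydratase Hacd4 was called higher in AKR_F1 in every array, with 8.65, 8.80 and 8.78 against a highest DBA_F1 value of 8.21 (0.66 ± 0.074, adjusted p = 0.00795). Its adjusted p was 0.0508 without AKR_F1 replicate 2.

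Among 15 triglyceride assembly genes 11 had higher means in DBA_F1 (median -0.07) and 0 were called by limma, with 6 at an unadjusted p under 0.05. The largest differences were those of glycerol-3-phosphate dehydrogenase Gpd1 (-1.75 ± 0.50, adjusted p = 0.134), the acyltransferases Dgat2 (-1.38 ± 0.32, adjusted p = 0.0821) and Agpat2 (-0.70 ± 0.24) and the phosphatase Lpin3 (-0.36 ± 0.073, adjusted p = 0.0571). Without DBA_F1 replicate 3, Gpd1, Dgat2 and Agpat2 were called (adjusted p = 0.0357, 0.0171 and 0.0273), and with array weights Dgat2 (0.0404) and Lpin3 (0.0309) were. Lpin3 was also called without a trend (0.0466). Among 15 regulators 0 were called and 3 had an unadjusted p under 0.05. The glucose-responsive factor ChREBP (Mlxipl) had the largest difference (-0.73 ± 0.23, adjusted p = 0.158), then the adipogenic receptor Pparg (-0.33 ± 0.12, called without DBA_F1 replicate 3 with an adjusted p of 0.0417) and Ppargc1b (-0.28 ± 0.12). Of 8 acyl-CoA synthetases 0 were called and 3 had an unadjusted p under 0.05, with the largest differences for the transporters Slc27a2 (-0.81 ± 0.29, and -1.15 with an adjusted p of 0.0275 without DBA_F1 replicate 3) and Slc27a1 (-0.44 ± 0.11) and for Acsl3 (0.30 ± 0.079).

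Of the phosphatidylcholine genes, which use the fatty acids for membranes and surfactant, 8 of 11 had higher means in AKR_F1 (median 0.04). Over all tested genes this held for 7280 of 13202 (median 0.02). The acyltransferase Lpcat1 (0.41 ± 0.078, adjusted p = 0.0452) and the choline transporter Slc44a1 (0.28 ± 0.054, adjusted p = 0.0499) were called. Over 15 alternatives the call was lost in 6 for Lpcat1, 4 of them fits without 1 array, and in 11 for Slc44a1, among them median centring, no filter and the replicate block. The 18 cholesterol synthesis genes, most of them targets of the related factor SREBP-2, had a median of 0.06, with 0 called and 1 at an unadjusted p under 0.05. Cyp51 (0.34 ± 0.20), Mvd (0.31 ± 0.19), Mvk (-0.24 ± 0.055, adjusted p = 0.0771) and Lss (0.23 ± 0.14) differed most.

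Genes of the opposite process, beta oxidation, leaned further than those of synthesis. Of 18 tested, 17 had higher means in DBA_F1, with a median of -0.48 beside -0.22 for the synthesis genes, and 12 had groups that did not overlap (24.2% over all tested genes). The thiolase Acaa2 was called (9.57, 9.38 and 9.46 against 10.33, 10.67 and 10.05, difference -0.88 ± 0.15, adjusted p = 0.0302), but not when AKR_F1 replicate 1, AKR_F1 replicate 2 or DBA_F1 replicate 1 was left out (highest adjusted p 0.132). Without DBA_F1 replicate 3, 13 of the 18 were called. At an unadjusted p under 0.05 there were 14 (19.1% over all tested genes). The difference between the lists was not tested. The mean of this list followed the brown adipocyte order of arrays, with 9.01 as its lowest array value and 9.80 as its highest.

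**Figure D4:**
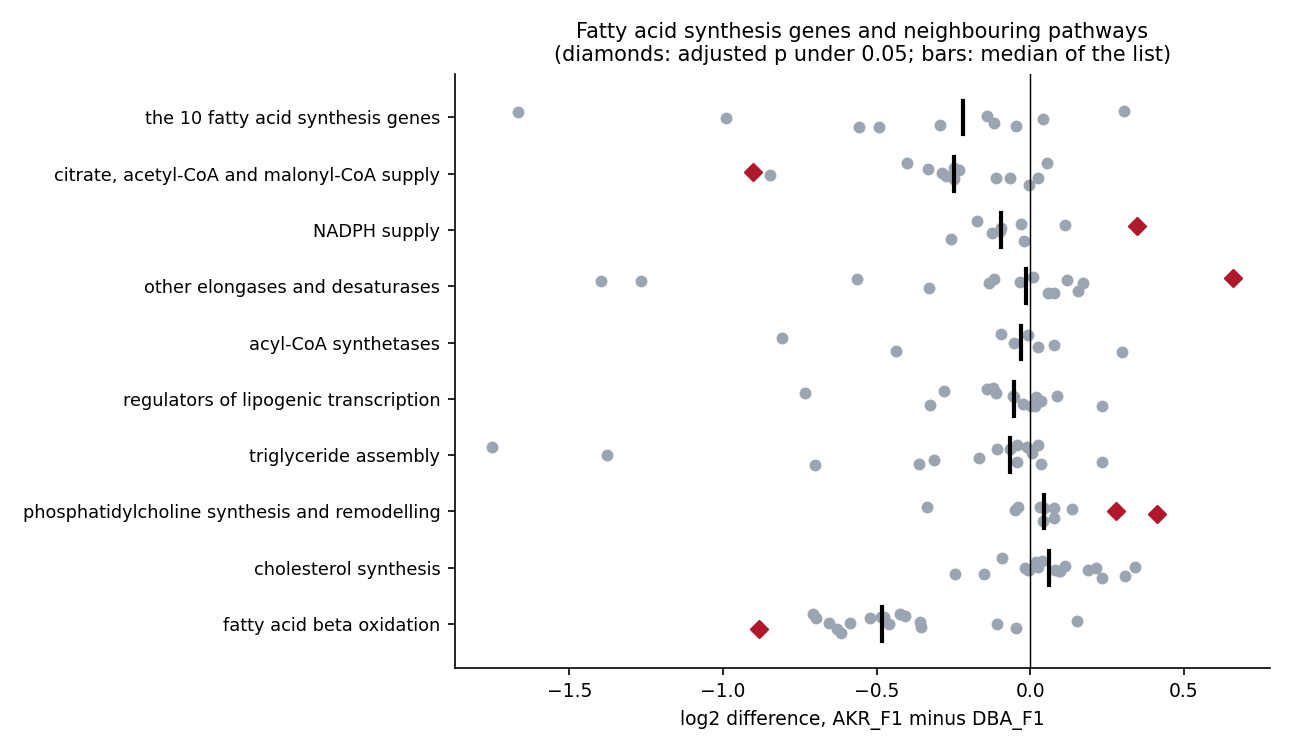
Log2 difference, AKR_F1 minus DBA_F1 (x axis), of each tested gene in the 10 fatty acid synthesis genes and the 9 neighbouring lists, by brightest probe set, with red diamonds for an adjusted p under 0.05 and black bars for list medians. None of the 10 synthesis genes is a diamond, and beta oxidation has the lowest median, -0.48.

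Other cell type lists were read on the same arrays. Type 2 markers had higher means in AKR_F1 for 12 of 15, as did 7280 of all 13202 tested genes. The groups did not overlap for 6 of the 15, against 24.2% of all tested genes, with 5 of the 6 higher in AKR_F1. The other, Chil1, was higher in DBA_F1 (-0.35 ± 0.12, adjusted p = 0.189). Sftpb (0.32 ± 0.057, adjusted p = 0.0371) and Napsa (0.34 ± 0.064, adjusted p = 0.0437) were called, where the share over all tested genes was 2.48%. Both calls were lost without AKR_F1 replicate 1 or 2, without DBA_F1 replicate 2 or 3 and without a trend. Alveolar macrophage markers, from cells that also handle surfactant lipid, had means of 8.18 to 8.47 in AKR_F1 and 8.14 to 8.42 in DBA_F1. Of 8 genes 4 leaned each way (median -0.005), and 1 was called, against 2.48% of all tested genes. This was Siglecf (0.83 ± 0.12, adjusted p = 0.0182), a call lost without AKR_F1 replicate 1 or without DBA_F1 replicate 1 or 2. Fabp1 (-0.28 ± 0.098, adjusted p = 0.2) and Chil3 (-0.19 ± 0.099, adjusted p = 0.364) were higher in DBA_F1 without overlap. Of the hepatocyte markers 2 of 8 were tested, with list means of 5.34 to 5.51 on all arrays, and the 5 Schwann cell and myelin markers had 8.35 to 8.44. Hepatocytes and myelinating cells also make fatty acids, and 0 genes of these lists were called by limma, with 1 at an unadjusted p under 0.05.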

How the data were processed

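Lung RNA of 6 arrays was analysed from the deposited log2 signals, with 1 value for each probe set on an array. MAS5 and RMA appear in the submitters' processing notes without saying which made the values, and with no version, so the log2 scale was read from the values. No further normalization was applied. After 64 control probe sets were removed, the lowest 40% by mean over all arrays (log2 of 4.72 or less) were left out, which left 27022. Groups were compared with limma 3.58.1 in R 4.3.3 (lmFit, two-sided, eBayes with trend, group as the only term, 4 residual and 3.06 prior degrees of freedom), with Benjamini-Hochberg adjustment over all tested probe sets and a call under 0.05. A gene stands for its brightest tested probe set. No detection calls were used. Precision is limited by having 3 arrays per group. Within-array ratios were compared by exact permutation (scipy 1.17.1). The fit was tested on simulated data. The members, lists and rules were chosen with earlier results of these data known. Named were all members, called genes of each pathway list, otherwise up to 4 with the largest differences, and bright markers. Elovl3, Elovl4, Elovl7, Ucp1, Ppara, Prdm16, Dio2, Lep, Pck1, Plin4, Sftpb, Napsa, Chil1, Siglecf, Fabp1 and Chil3 were chosen after their values were seen. The platform annotation gives 1 symbol for 34945 probe sets, several for 932 and none for 9160, and symbols were updated by gene ID through a RefSeq table of GRCm38.p6.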

Additional observations from a re-analysis of the deposited data

How the results depend on the processing

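Other scalings (quantile, median), filters (none, 60%), eBayes settings (no trend, robust), weights for arrays, a replicate block, fewer arrays and the mean of a gene's probe sets were tried. List counts were added to them after the data were seen. Over all probe sets limma called 707, 1198 with array weights and 198 to 1171 with 1 array left out. AKR_F1 replicate 3 alone against DBA_F1 gave 85, assuming that the lone array varies like the others, with 0 pathway and 0 marker genes (13 and 16 at an unadjusted p under 0.05). Called member probe sets were 0 to 2 with 1 array left out, from Thrsp or the dim probe set of Fads1 (called genes 0 to 1, Thrsp). The dim Fads1 probe set was the 1 called with robust eBayes and the 1 called with the replicate block. Pathway genes called ran from 1 to 25 and marker genes from 2 to 24 with 1 array left out, and marker genes were 7 without a trend. The sign turned for Srebf1 (brightest probe set, -0.069) and Lss (-0.038) with AKR_F1 replicate 3 alone and for Fads1 with the mean of its probe sets (0.39). With 1 array left out the range crossed 0 for Srebf1 (-0.035 to 0.14), Fads1 (-0.095 to 0.017) and Slc27a4 (-0.18 to 0.021). The causes were not tested. Replicate numbers were not taken as pairs, since deviations of same-numbered arrays correlated at 0.31, -0.23 and -0.05, and the replicate block gave 539 called probe sets. Detection over background was not given, which limits the dim probe sets.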
